A study of Mus musculus with 4 samples.

Results

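Circular RNAs (circRNAs) of 4 genes that serve protein processing in, or the shape of, the endoplasmic reticulum (ER) were examined in primary mouse articular chondrocytes, the cells of joint cartilage. The genes were Dpy19l1, Sec11a, Sumf1 and Atl2. A circRNA is a closed loop made when a splice donor is joined back to an upstream acceptor, and each was counted by the reads that cross that back-splice junction. Every circRNA with both ends inside the RefSeq span of a gene, allowing 1 bp at each end, was taken, which gave 29 of the 40909 circRNAs measured: 12 from Dpy19l1, 7 from Sec11a, 9 from Sumf1 and 1 from Atl2. The genes had been picked because their summed junction reads differed between the groups, so their differences between the groups are given as a description and were not tested. There were 2 libraries of thawed, early-passage chondrocytes given recombinant human interleukin-1β (IL-1β), an inflammatory cytokine, at 10 ng/ml for 24 h, and 2 libraries, called control here, of the same cells whose source label names no IL-1β. The treatment field of the controls nonetheless carries the same text as that of the treated libraries. RNA of all 4 libraries was digested with RNase R, which removes linear RNA, so mRNA levels of these genes were not measured. Whether replicate libraries are separate cultures, or separate mice, is not stated in the labels, so the spread between them may be technical.

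Proteins bound for secretion, the membrane or the lysosome enter the ER as they are made, and cartilage cells secrete large amounts of matrix protein by this route. Sec11a encodes a catalytic subunit of signal peptidase, which cuts the signal peptide from such proteins. Dpy19l1 encodes a mannosyltransferase of the ER membrane, of the family of the nematode protein DPY-19, that attaches mannose to tryptophan residues of proteins with thrombospondin repeats. Sumf1 encodes the formylglycine-generating enzyme, which switches on sulfatases by converting a cysteine of their active site, and Atl2 encodes an atlastin, a GTPase that fuses ER tubules into a network.

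Junction reads totalled 895774 and 980542 in IL-1β 1 and 2, against 1198010 and 1203855 in control 1 and 2. The 29 circRNAs carried 1759 of them, or 0.0411% of all junction reads, so many of the values rest on few reads. Of the 12 chondrocyte markers listed, circles were read from Sox5, Sox6 and Hapln1, with a summed level of 271 and 328 CPM (junction reads scaled to a common library size) after IL-1β, against 411 and 243 CPM in controls. No circle was assigned to Col2a1, Acan, Sox9 or the other 6, which concerns circles and not mRNAs. Reads of circles without a single host gene were not counted for any marker. None of the 5 macrophage markers had an assigned circle. Of 5 osteoblast markers only Runx2 had reads, with 375 and 372 CPM after IL-1β, against 273 and 447 CPM in controls, and of 4 endothelial markers only Pecam1, with 8 reads in IL-1β 1. Of 5 fibroblast markers 4 had reads (Thy1 had no assigned circle), with a sum of 89.2 and 67.2 CPM after IL-1β, against 143 and 211 CPM in controls. This sum was thus lower in both IL-1β libraries than in both controls, a split also seen in 18.9% of all hosts tested. Which of the 4 genes carried it is not given, and the part of these circles in the results was not tested.

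All 4 genes lie on the minus strand of the mm10 assembly, as do all 29 circles. Dpy19l1 (gene ID 244745) spans chr9:24411778-24503140, Sec11a (56529) chr7:80915379-80947550, Sumf1 (58911) chr6:108107021-108185591 and Atl2 (56298) chr17:79848352-79896204. The table of annotation used held gene spans without exons, so whether a junction end falls in an exon is not stated. From end to end a circle spanned a median of 18961 bp, against 10569 bp for all circRNAs. Circles read in all 4 libraries numbered 5 (17.2%, against 16.8% of all circRNAs), and those read in 1 library 13 (44.8%, against 58.6%). By number of circles Dpy19l1 stood above 86.9% of the 6930 host genes, Sumf1 above 80.4% and Sec11a above 73.1%, where the median host had 3. The single circle of Atl2 is the smallest number a host can have, although its 208 reads exceeded those of 68.6% of hosts.

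The stretches of promoter before the 4 genes are shown because the genes, 3 on the higher and 1 on the lower side, were chosen together. They are RefSeq sequence of GRCm38.p6, written 5′ to 3′ on the gene's strand and ending at the edge of the annotated gene: chr9:24503141-24503390 for Dpy19l1, chr7:80947551-80947800 for Sec11a, chr6:108185592-108185833 for Sumf1 and chr17:79896205-79896373 for Atl2, all on the minus strand. Capitals mark matches to CCACG, to the inverted CCAAT box near the start of the Atl2 stretch, and to the consensus of NF-κB, a factor through which IL-1 signals.
Dpy19l1: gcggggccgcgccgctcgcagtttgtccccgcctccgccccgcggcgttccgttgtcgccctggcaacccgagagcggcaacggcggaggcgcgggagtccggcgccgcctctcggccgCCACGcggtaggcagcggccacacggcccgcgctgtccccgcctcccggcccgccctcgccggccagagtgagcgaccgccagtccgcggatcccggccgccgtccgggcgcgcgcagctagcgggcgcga
Sec11a: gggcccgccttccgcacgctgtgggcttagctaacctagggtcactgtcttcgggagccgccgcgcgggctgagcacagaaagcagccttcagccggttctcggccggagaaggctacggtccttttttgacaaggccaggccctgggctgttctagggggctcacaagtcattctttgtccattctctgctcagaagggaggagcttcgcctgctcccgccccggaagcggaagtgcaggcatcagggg
Sumf1: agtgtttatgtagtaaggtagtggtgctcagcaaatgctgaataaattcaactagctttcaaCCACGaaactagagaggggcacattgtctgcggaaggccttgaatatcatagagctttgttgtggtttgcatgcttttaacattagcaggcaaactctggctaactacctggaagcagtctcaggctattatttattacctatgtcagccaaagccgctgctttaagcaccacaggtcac
Atl2: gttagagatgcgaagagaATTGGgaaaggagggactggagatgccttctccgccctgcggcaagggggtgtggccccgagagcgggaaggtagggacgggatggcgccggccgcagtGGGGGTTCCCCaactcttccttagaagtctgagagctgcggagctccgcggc

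The 4 stretches differ in base composition: 80.8% of bases were G or C before Dpy19l1, 63.2% before Sec11a, 64.5% before Atl2 and 43.4% before Sumf1, against a median of 52.4% over the 32817 RefSeq promoter windows of 250 bases. Motifs were searched on either strand in the 250 bases before the start used for the RefSeq promoter window. For Sumf1 and Atl2 that start lies inside the annotated gene, so the last bases of their windows are not in the stretches shown. The NF-κB consensus was found before Atl2 alone of the 4, as overlapping matches that begin 133 and 132 bases before that start, and 3.90% of all promoters held it. CCACG was found before Dpy19l1, Sumf1 and Atl2 (the match of Atl2, 41 bases before the same start, lies inside the annotated gene and is not shown) and in 28.3% of all promoters, and CCAAT before Atl2 and in 33.8%. None of the 4 held TGACGTG, the core of an unfolded protein response element (1.65% of all promoters), TATAAA (12.4%), or the whole ER stress element (0.113%), which joins the CCAAT box to a distal CCACG. A motif added after the sequences were seen, CACGTG, lay 11 bases before the start used for Sumf1, partly inside the annotated gene, and is not marked, and was held by 6.02% of promoters. A match is a run of letters and does not show that a factor binds there.

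Summed over its circles, each gene had all of its IL-1β libraries on one side of its control libraries. Dpy19l1 gave 262 and 288 reads after IL-1β, against 110 and 49 in controls. Sec11a gave 151 and 180 reads after IL-1β, against 75 and 58 in controls. Sumf1 gave 123 and 147 reads after IL-1β, against 51 and 57 in controls. These 3 genes stood higher in each IL-1β library, despite the smaller totals of those libraries. Atl2 went the other way, at 0 reads in IL-1β 1 and 2, against 67 and 141 in the controls. Groups that do not overlap were common: 17% of the 4879 hosts with at least 20 reads had both IL-1β libraries above both controls, 18.9% had both below, and 2.23% were at 0 in IL-1β 1 and 2 with reads in both controls. The 4 genes were chosen on this contrast, so their counts cannot be read against those shares.

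**Figure D1:**
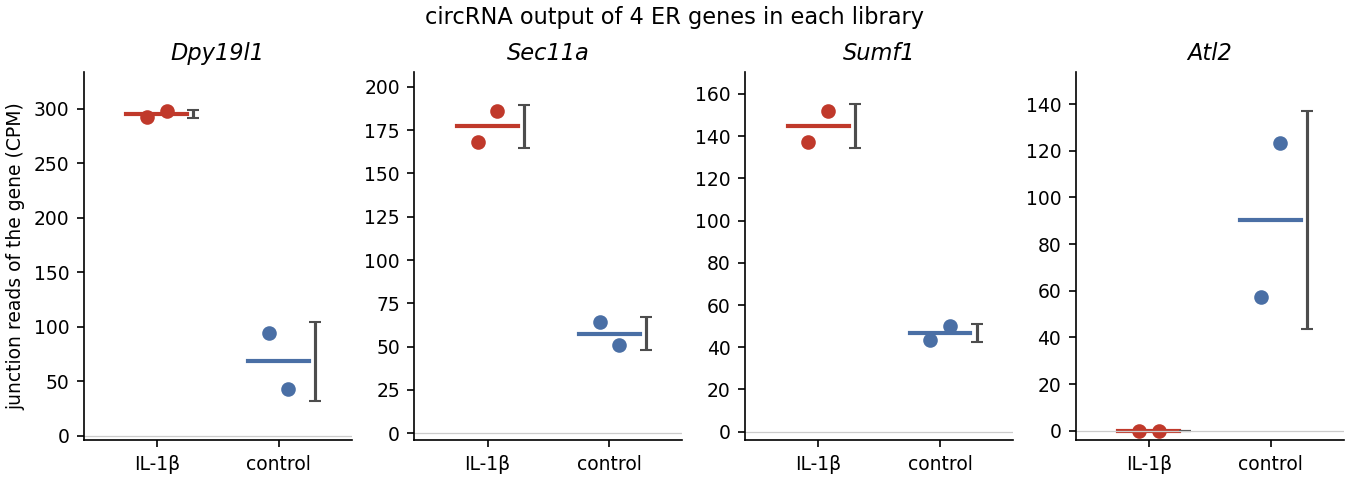
Junction reads of each gene, in CPM scaled with TMM factors over all hosts, for the IL-1β libraries (red, left) and the control libraries (blue, right); points are libraries, the coloured line is the mean of 2 and the grey bar is the mean ± SD. Dpy19l1 stood at 292 and 298 CPM after IL-1β against 94 and 42.9 CPM in controls, and Atl2 at 0 CPM after IL-1β against 57.3 and 123 CPM in controls; each panel has its own scale.

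In CPM scaled with TMM factors, which set libraries to a common bulk of hosts, Dpy19l1 averaged 295 ± 3.87 CPM after IL-1β, against 68.5 ± 36.1 CPM in controls (SD, n = 2 each), a log2 change of 2.10 ± 0.42 (SE from edgeR). The spread lay in the controls, 94 and 42.9 CPM. Without control 1 the log2 change was 2.82, and without control 2 it was 1.65. Sec11a averaged 177 ± 12.5 CPM after IL-1β, against 57.4 ± 9.41 CPM in controls, a log2 change of 1.62 ± 0.39. Sumf1 averaged 145 ± 10.4 CPM after IL-1β, against 46.7 ± 4.47 CPM in controls, a log2 change of 1.63 ± 0.42. For these 2 genes the SD in CPM was no larger in the controls than in the IL-1β libraries. Relative to the group's mean, however, it was larger in the controls for each gene. Atl2 averaged 90.4 ± 46.8 CPM in controls, and against a floor of 3 reads in each IL-1β library (3.35 and 3.10 CPM) it was at least 28.0-fold lower after IL-1β. Its bound was a log2 change of -4.81, and -4.15 without control 2, the library with most of its reads. The floor allows for counting error alone, as PCR copies are not independent molecules. In bulk samples fewer cells that make a circle and less of it per cell cannot be told apart.

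Of the 29 circles 12 had at least 20 reads over the libraries, and these held 92.0% of the reads of the 4 genes. Of these 12, 6 were higher in both IL-1β libraries than in both controls, 1 was lower and 5 overlapped. Over all 15333 circRNAs with that many reads, 16.4% were higher and 17.2% lower without overlap, 4.69% were at 0 in IL-1β 1 and 2 with reads in both controls, and 3.44% had an unadjusted p under 0.05 in edgeR's quasi-likelihood test. After adjustment 3 circRNAs (0.0196%) passed it. As with the genes, this contrast chose the members, so nothing is read from their shares.

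Dpy19l1, the C-mannosyltransferase gene, made its circles mainly from 1 acceptor. The acceptor at 24482066 on chromosome 9 was joined to 3 donors and held 86.5% of the gene's reads. Circles from this acceptor had 251 and 245 reads after IL-1β, against 92 and 25 in controls. They made up 95.8% and 85.1% of Dpy19l1 reads after IL-1β, against 83.6% and 51.0% in controls. The exact 95% interval for control 2 ran from 36.3% to 65.6%, on 49 reads, and that for IL-1β 1 from 92.6% to 97.9%, on 262. The acceptor lay 21.1 kb into the gene, which is 91363 bp long, and its circles ended at 29.4, 40.6 and 55.4 kb.

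The shortest of the 3, circRNA.39072 (chr9:24473774-24482066), was the gene's most read circle, with 41.3% of its reads. It had 115 and 128 reads after IL-1β, against 42 and 8 in controls, or 129 ± 3.38 CPM after IL-1β, against 21.2 ± 20.8 CPM in controls. Leaving it out of the gene's sum left a log2 change of 1.80 for Dpy19l1. The next, circRNA.39069 (chr9:24462577-24482066), had 97 and 92 reads after IL-1β, against 7 and 17 in controls, or 100.5 ± 8.72 CPM after IL-1β, against 9.95 ± 5.60 CPM in controls. The longest, circRNA.39067 (chr9:24447787-24482066), had 39 and 25 reads after IL-1β, against 43 and 0 in controls, so its groups overlapped.

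These circles did not keep a fixed share of the gene within a group. After IL-1β, circRNA.39069 made up 37.0% and 31.9% of Dpy19l1 reads, against 6.36% (exact 95% interval 2.60% to 12.7%) and 34.7% (21.7% to 49.6%) in controls. For circRNA.39067 the controls stood at 39.1% (29.9% to 48.9%) and 0%, where 0 of 49 reads allows a share of up to 6.12% by a floor of 3 reads and 7.25% by the exact interval. For both circles the exact intervals of control 1 and control 2 thus did not meet. These intervals treat each read as an independent draw, which PCR copies are not, so they do not settle whether the controls differed. The 4th circle with over 20 reads, circRNA.39068 (chr9:24450656-24485729), uses another acceptor and had 7 and 6 reads after IL-1β, against 0 and 9 in controls. The other 8 circles had 3 to 19 reads each. Of these 8, 5 were read after IL-1β alone, 1 in control libraries alone and 2 in both groups, and 37 of their reads came from IL-1β 2. Shares over all circRNAs with under 20 reads are not given, so nothing is read from these counts.

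**Figure D2:**
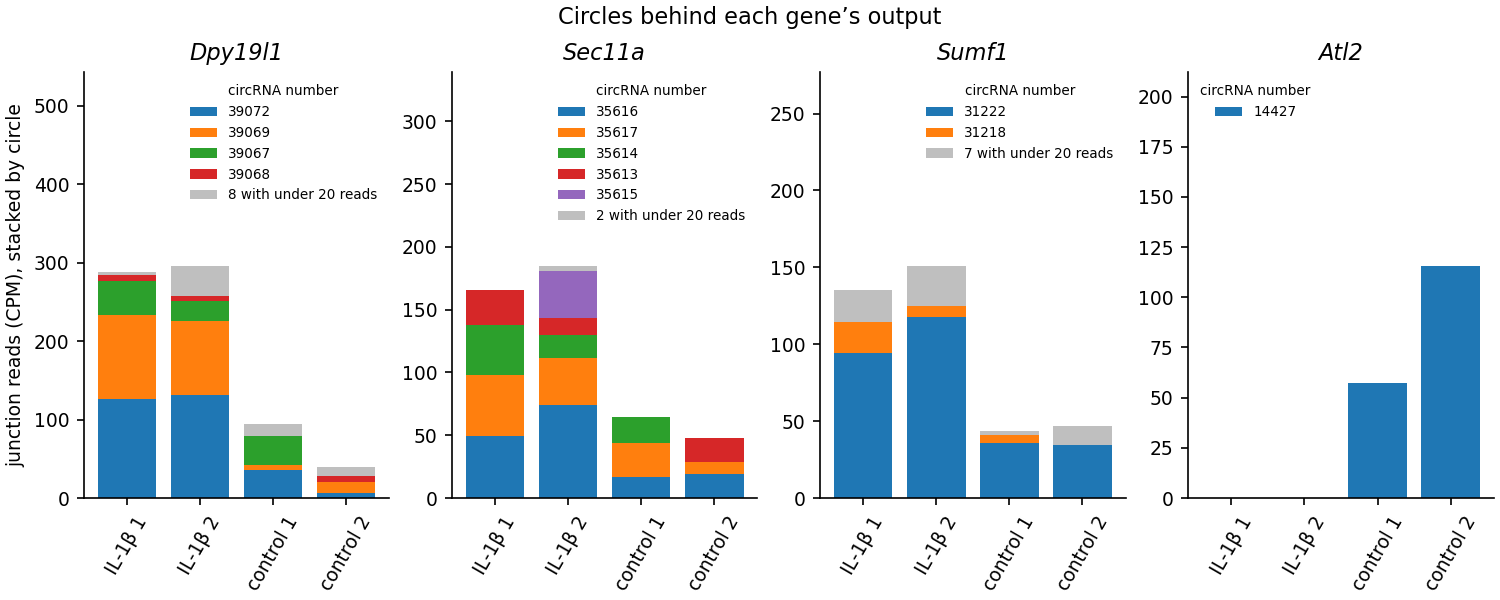
Junction reads of each gene in each library, in CPM scaled with the factors of the circRNA table, stacked by circle, with circles under 20 reads in grey; IL-1β libraries stand left of controls and each panel has its own scale. The Dpy19l1 circles circRNA.39072 and circRNA.39069 and the Sumf1 circle circRNA.31222 fill most of the IL-1β bars, and the makeup of the Sec11a bars differs between the 2 controls.

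Sec11a, the signal peptidase gene, spread its reads more evenly. Its acceptor at 80935136 on chromosome 7 held 78% of its reads in 3 circles, with 125 and 127 reads after IL-1β, against 75 and 35 in controls. The acceptor at 80927886 held 21.1% in 2 circles, with 26 and 49 reads after IL-1β, against 0 and 23 in controls. Both acceptors therefore had more reads in each IL-1β library than in either control.

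Its most read circle, circRNA.35616 (chr7:80916175-80935136), held 34.5% of the reads. It had 45 and 72 reads after IL-1β, against 20 and 23 in controls, or 61.6 ± 17.2 CPM after IL-1β, against 18.0 ± 1.21 CPM in controls. The circle circRNA.35617 (chr7:80923101-80935136) had 44 and 37 reads after IL-1β, against 31 and 12 in controls, or 43.1 ± 7.38 CPM after IL-1β, against 18.2 ± 11.8 CPM in controls. The groups of these 2 circles did not overlap in CPM. Leaving circRNA.35616 out of the sum left a log2 change of 1.56 for Sec11a.

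The remaining 3 Sec11a circles with at least 20 reads came and went between libraries of a group. The circle circRNA.35614 (chr7:80915740-80935136) had 36 and 18 reads after IL-1β, against 24 and 0 in controls, and circRNA.35613 (chr7:80915740-80927886), from the same donor, 26 and 13 after IL-1β, against 0 and 23 in controls. Control 1 held the first without the second, and control 2 the second without the first. Summed over that donor, at 80915740, the reads were 62 and 31 after IL-1β, against 24 and 23 in controls. The circle circRNA.35615 (chr7:80916175-80927886) had 0 and 36 reads after IL-1β, against none in controls, so it was seen in IL-1β 2 alone. The other 2 circles had 2 reads each, all in IL-1β 2.

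A noncoding gene, Gm51451 (chr7:80910517-80931965), overlaps the 3′ part of Sec11a. Its strand was not given in the tables used, and 3 of the 7 Sec11a circles (circRNA.35612, circRNA.35613 and circRNA.35615) lie wholly inside it as well. Without these 3 circles Sec11a had 125 and 129 reads after IL-1β, against 75 and 35 in controls, a log2 change of 1.52. A further 3 circles had an end in Sec11a and the other beyond it and were not counted. The most read of them, circRNA.35610 (chr7:80911342-80923220), has its downstream end in the part of Gm51451 outside Sec11a and had 0 and 12 reads after IL-1β, against 13 and 0 in controls. The other 2 have their downstream end in the neuromedin B gene Nmb and had 10 and 2 reads, all in control 1. Just inside the limit, circRNA.35611 (chr7:80915697-80947516) runs nearly the length of Sec11a and had 2 reads.

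Sumf1, the activator of sulfatases, had 1 dominant circle. It was circRNA.31222 (chr6:108144591-108155041), with 75.4% of the gene's reads. It had 86 and 115 reads after IL-1β, against 42 and 42 in controls, or 106 ± 16.5 CPM after IL-1β, against 35.2 ± 1.11 CPM in controls, a log2 change of 1.59 ± 0.43. Its controls were nearly equal, and each IL-1β library had over 2 times their reads. Without this circle the log2 change of Sumf1 was 1.82. The only other Sumf1 circle with at least 20 reads, circRNA.31218 (chr6:108118620-108155034), had 18 and 7 reads after IL-1β, against 6 and 0 in controls.

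A second acceptor of Sumf1 lay 7 nt from the main one. The main acceptor, at 108155041 on chromosome 6, held 76.7% of the reads and the one at 108155034 held 10.6%. Circles from the lesser acceptor had 20 and 14 reads after IL-1β, against 6 and 0 in controls. With the acceptors pooled, circles ending at the donor 108144591 had 88 and 118 reads after IL-1β, against 42 and 42 in controls, and those ending at 108118620 had 18 and 7 after IL-1β, against 6 and 5 in controls. Pooling therefore left the main circle's values nearly as they were. The donor at 108152227 was used in 12 and 22 reads after IL-1β, against none in controls, spread over 3 circles of 4 to 18 reads, each seen in 1 library. The 7 Sumf1 circles under 20 reads included 4 read after IL-1β alone, 2 in control libraries alone and 1 in both groups. As for Dpy19l1, nothing is read from these counts.

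Atl2, the atlastin gene, had its reads in circRNA.14427 (chr17:79864703-79876046), which spans 11343 bp. The circle was at 57.4 and 115 CPM in the controls. No other junction was counted anywhere in the gene, so the 0 in the IL-1β libraries was not matched by reads at a neighbouring junction.

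**Figure D3:**
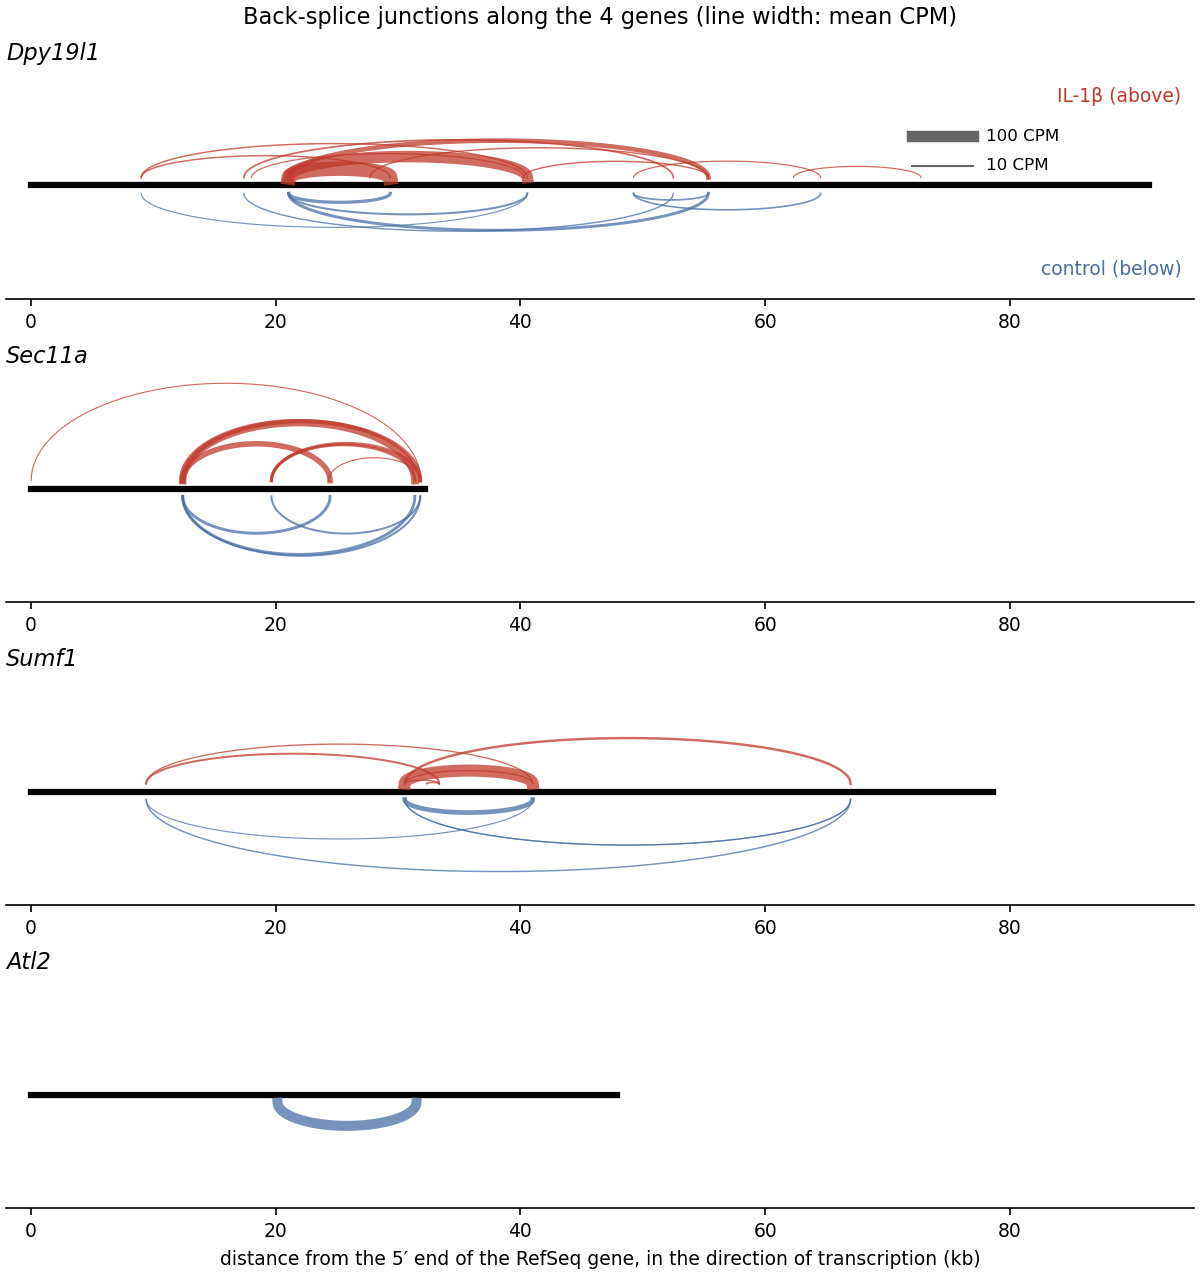
Back-splice junctions of the 4 genes drawn as arcs along the gene (black bar), with distance from its 5′ end in kb on the x axis; arcs above the bar are IL-1β and arcs below it control, and line width is the mean CPM of the 2 libraries. In Dpy19l1 and Sec11a the arcs from 1 upstream end hold 86.5% and 78% of the reads, in Sumf1 1 arc is thickest on either side, and Atl2 has 1 arc, below the bar.

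The relatives of the 4 genes were read from a list of paralogues. Atl3, another atlastin, had 58 and 114 reads after IL-1β, against 229 and 337 in controls, or 91.3 ± 37.6 CPM after IL-1β, against 245 ± 70.3 CPM in controls, a log2 change of -1.42 ± 0.41. Its libraries did not overlap, but it did not pass edgeR's quasi-likelihood test over all hosts (adjusted p = 0.882, Benjamini-Hochberg), and its adjusted p in DESeq2 was 0.0442. Its main circle, circRNA.17442 (chr19:7509348-7522207), had 49 and 63 reads after IL-1β, against 121 and 228 in controls, and 5 of its 8 circles shared the end at 7509348. The neuronal atlastin Atl1 had 3 reads, all in IL-1β 2. Summed with Atl2, the atlastins stood at 92.8 ± 39.8 CPM after IL-1β, against 336 ± 117 CPM in controls. The sums of the Sumf, Dpy19l and Sec11 families stood higher after IL-1β. Each sum includes a gene picked for its own difference, so nothing is read from the direction of these sums.

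Sumf2, which is related to Sumf1 but lacks its enzyme activity, was at 0 reads in IL-1β 1 and 2, against 22 and 34 reads in the controls. It was at least 7.53-fold lower against the same floor, and did not pass edgeR's test (adjusted p = 0.882). Sumf1 and Sumf2 thus stood on opposite sides, but Sumf1 had been picked for its difference between the groups, so nothing is read from this contrast. Dpy19l4, a relative of Dpy19l1, had 7 and 32 reads after IL-1β, against 50 and 27 in controls over 10 circles, and its groups overlapped (log2 change -0.69 ± 1.03, adjusted p = 1.00 in edgeR). No circle was assigned to Dpy19l2, Dpy19l3 or Sec11c.

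The sulfatases that Sumf1 activates were read next. Of 13 listed, 8 had circles and 4 had at least 20 reads. All 4 had a log2 change below 0, with a median of -0.30. Of all 4879 hosts tested, 2539 were below 0, with a median of -0.03. By edgeR's test 0 of the 4 passed, as did 0 of all hosts, and 0 had an unadjusted p under 0.05, against 4.55% of all hosts. With 4 hosts, nothing is read from their shared side. Sulf2, which trims heparan sulfate outside the cell, stood at 144 ± 21.4 CPM after IL-1β, against 188 ± 1.05 CPM in controls (adjusted p = 0.989). Ids, iduronate sulfatase, stood at 18.5 ± 10.4 CPM after IL-1β, against 24.1 ± 17.9 CPM in controls (adjusted p = 1.00). The IL-1β libraries of Sulf2 lay below the controls without overlap, as did those of 18.9% of all hosts, and the groups of Ids overlapped.

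The wider ER machinery was read from 7 lists holding 283 gene symbols beside the 4 members (a few are aliases of another on the lists), for which 183 hosts had circles and 135 could be tested as hosts. Of the 135, 68 had a log2 change above 0 and 67 below, with a median of 0.00, against 48% above 0 and a median of -0.03 over all 4879 hosts. By edgeR's quasi-likelihood test 0 of the 135 passed an adjusted p of 0.05, as did 0 (0%) of all hosts. At an unadjusted p under 0.05 there were 5 higher and 5 lower of the 135, against 4.55% of all hosts, and in DESeq2 4 passed, where 47 (1.11%) of the 4216 hosts with an adjusted p did: Asph and Atl3 lower, Canx and Uggt2 higher. Groups did not overlap in 23.0% of the 135 on the higher side and 19.3% on the lower, against 17.0% and 18.9% of all hosts.

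**Figure D4:**
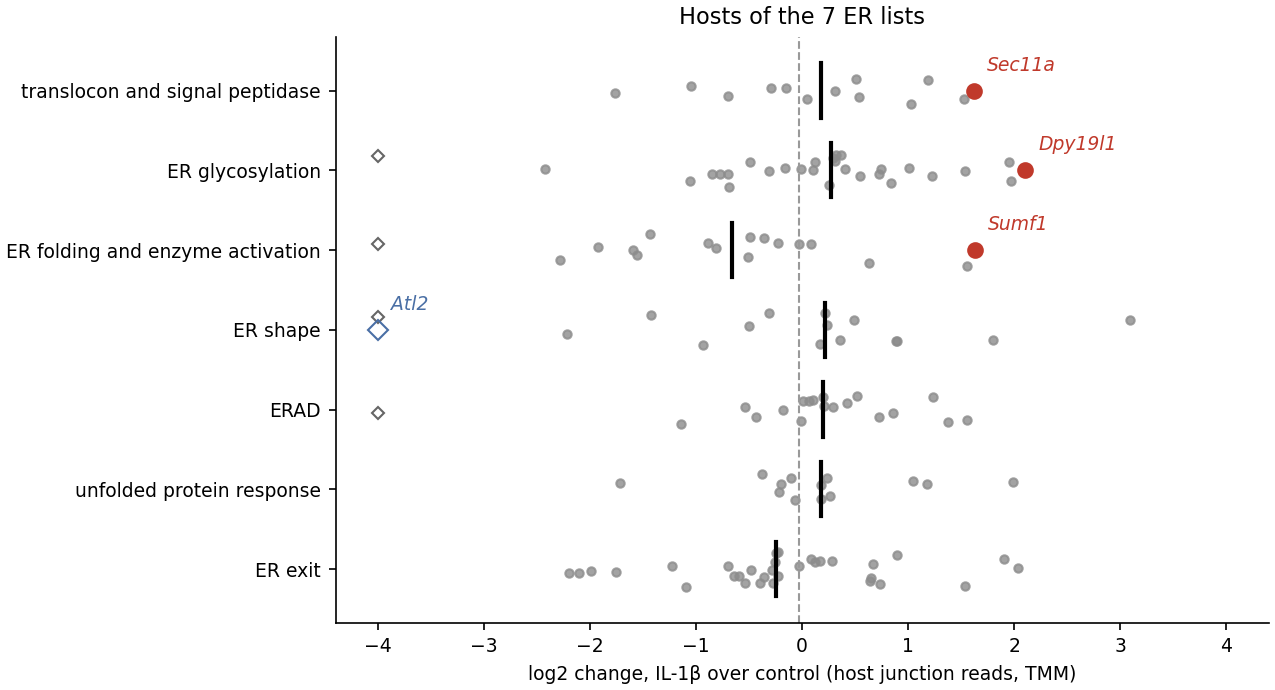
Log2 change after IL-1β over control of host junction reads for the tested members of 7 ER lists (grey points), with the list's median (black bar), the median of all hosts (dashed line) and the 4 genes named; diamonds at the left edge are hosts with 0 reads in both IL-1β libraries, whose fold has only a bound. The grey points spread to both sides in every list, with medians between -0.66 and 0.27.

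Under the depth implied by SRPBM, the median of all hosts was -0.24, and the medians of the translocon (-0.0016), ER shape (-0.08), degradation (-0.02) and unfolded protein response (-0.22) lists lay below 0, while each list kept its side of the median of all hosts.

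Within the lists the steps of the pathway did not share 1 direction, and no host named here passed edgeR's test (adjusted p = 0.882 unless given). In the translocon and signal peptidase list, where Sec11a belongs, 7 of 12 were above 0 with a median of 0.18. Sec61a1, the channel through which new proteins enter the ER, stood at 89.3 ± 9.61 CPM after IL-1β, against 31.0 ± 14.2 CPM in controls. Emc1, of a complex that inserts membrane proteins, stood at 103 ± 34.7 CPM after IL-1β, against 45.2 ± 25.2 CPM in controls. Snd1 was on the list, although its mouse protein is not an established part of this machinery. It stood at 881 ± 48.2 CPM after IL-1β, against 1820 ± 1480 CPM in controls. The Snd1 difference lay in control 2, with 3274 reads against 905 in control 1.

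In the glycosylation list, where Dpy19l1 belongs, 17 of 28 were above 0 with a median of 0.27. Uggt2, a sensor that re-glucosylates misfolded glycoproteins, stood at 138 ± 74.9 CPM after IL-1β, against 35.4 ± 1.84 CPM in controls. Alg12 and Alg6, which build the sugar precursor of N-glycans, stood at 913 ± 32.1 and 195 ± 48.0 CPM after IL-1β, against 689 ± 22.8 and 109 ± 50.7 CPM in controls. All 3 had IL-1β libraries above the controls, but they were named for their low edgeR p on this contrast. Over the whole list 35.7% stood higher and 10.7% lower without overlap, against 17.0% and 18.9% of all hosts. The same shares were 33.3% and 13.3% in the ER shape list, and 25% and 16.7% in the translocon list. They were 21.1% and 5.26% for degradation, and 15.4% and 15.4% for the unfolded protein response. The folding list, with 6.25% higher and 37.5% lower, and the ER exit list, with 18.75% and 31.25%, leaned the other way.

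In the list of folding and enzyme activation, where Sumf1 belongs, 13 of 16 were below 0 with a median of -0.66. Sumf1 itself, picked for its difference, was on the higher side. Asph, an aspartate hydroxylase, stood at 6902 ± 112 CPM after IL-1β, against 9675 ± 440 CPM in controls. The lectin chaperone gene Canx went the other way, at 1363 ± 61.2 CPM after IL-1β, against 882 ± 110 CPM in controls.

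In the ER shape list, where Atl2 belongs, 9 of 15 were above 0 with a median of 0.22. Beside Atl3, Vapa, which tethers the ER to other membranes, stood at 151 ± 13.1 CPM after IL-1β, against 81.3 ± 3.50 CPM in controls, and Rrbp1, a ribosome-binding protein of the rough ER, at 75 ± 46.0 CPM after IL-1β, against 143 ± 39.8 CPM in controls. The 2 atlastins on the lower side, of which Atl2 was picked for its difference, were thus accompanied by shape genes on either side.

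For the unfolded protein response, the signalling that follows ER overload, 7 of 13 hosts were above 0 with a median of 0.18. Ern1, the sensor IRE1α, stood at 233 ± 3.39 CPM after IL-1β, against 113 ± 28.2 CPM in controls. Atf6, another sensor, stood at 415 ± 75.4 CPM after IL-1β, against 541 ± 119 CPM in controls (adjusted p = 0.891), and Map3k5, a kinase downstream of Ern1, at 33.2 ± 19.2 CPM after IL-1β, against 8.32 ± 11.8 CPM in controls (adjusted p = 0.989). The Ern1 groups therefore did not overlap, while those of Atf6 did (log2 change -0.38 ± 0.26), so Atf6 is given no side. These hosts were named for their low edgeR p on this contrast.

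Of ER-associated degradation hosts 13 of 19 were above 0 with a median of 0.19. Ube2j1, its ubiquitin-conjugating enzyme, stood at 64.4 ± 0.43 CPM after IL-1β, against 21.9 ± 21.0 CPM in controls. Nploc4, a partner of the ATPase that extracts proteins from the ER, stood at 235 ± 57.9 CPM after IL-1β, against 318 ± 42.9 CPM in controls, and Sel1l had reads in control 2 alone (31). Of ER exit hosts 12 of 32 were above 0 with a median of -0.25. Trappc9 stood at 593 ± 22 CPM after IL-1β, against 780 ± 55.6 CPM in controls. Sec31b, a coat subunit of ER exit vesicles, stood at 123 ± 19.2 CPM after IL-1β, against 192 ± 76.2 CPM in controls, and Ergic1 at 142 ± 34.9 CPM after IL-1β, against 85.4 ± 30.2 CPM in controls.

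Among 2931 other hosts with at least 100 reads, those whose pattern over the 4 libraries was closest to a member's were picked by the root mean square difference of log2(CPM + 1), centred on each gene's own mean. For Sec11a the closest were Coro1c (0.05), Mob3b (0.08) and Tmem184c (0.13), and Coro1c stood at 115 and 127 CPM after IL-1β, against 43.6 and 31.5 CPM in controls. For Sumf1 they were Mob3b (0.13), Phex (0.18) and Tlk2 (0.19), and Mob3b stood at 124 and 134 CPM after IL-1β, against 47.0 and 42.0 CPM in controls. For Dpy19l1 they were Slc17a5 (0.24), Gse1 (0.27) and Usp9x (0.29), with Slc17a5 at 53.5 and 66.2 CPM after IL-1β, against 26.5 and 10.5 CPM in controls. For Atl2 the closest host, Rgs12, lay 1.58 away, at 0 and 4.13 CPM after IL-1β, against 61.5 and 28.0 CPM in controls. Hosts with fewer reads were not searched, and Sec11a and Sumf1 shared Mob3b. With 4 libraries such likeness describes these libraries alone.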

How the data were processed

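The authors deposited back-splice junction reads as whole-number counts per circRNA and library, per the file headers, and SRPBM, a depth-scaled signal. Dividing the deposited counts by that signal gave 1 constant per library (11.9 and 13.4 for IL-1β, 11.8 and 16.1 for control). Depletion of ribosomal RNA, RNase R digestion and strand-specific libraries are given per the labels' protocols. The submitters' processing notes name mm10 and Bowtie2. Which circRNA caller and filters were used is not given in the sources. All 4 samples carry the same treatment text, so groups were taken from the source label. The 4 single-library tables held the same counts as the series table.

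A circle was given a host when both ends lay inside exactly 1 coding RefSeq gene (GRCm38.p6, the mm10 assembly), or failing that exactly 1 other gene, which placed 96.7% of circRNAs. All hosts and all circRNAs with at least 20 reads were put through the quasi-likelihood test of edgeR 4.0.16 (R 4.3.3), with TMM factors, group as the only term and Benjamini-Hochberg adjustment at 0.05, and the fit was tested on simulated counts. The SE of a log2 change was taken as its size over the root of its F statistic. CPM of circles and of hosts use the factors of their own table. Alternatives were DESeq2 1.42.0, RLE factors, library totals, SRPBM depth, other read minimums, a replicate block, each library left out, junctions within 5 nt summed, and other choices of a gene's circles. Leaving out Sec11a circles inside Gm51451 was added after the annotation was seen. Intervals for shares are exact (Clopper-Pearson, 95%, scipy 1.17.1) and cover counting error only.

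The members and lists were chosen with earlier results of these data known. Named are all circles of the 4 genes with at least 20 reads, 3 tested hosts of each list with the lowest edgeR p, all paralogues with reads, and 3 hosts nearest in pattern to each gene; other circles named were chosen after their values were seen. A host that this rule names is not reported here. Of the 283 listed symbols 281 matched RefSeq, and a gene listed under several symbols was counted once as a host.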

Additional observations from a re-analysis of the deposited data

How the results depend on the processing

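The direction of all 4 genes held under every alternative run, which is no separate support. Atl2 had 0 reads in IL-1β 1 and 2, so no alternative could reverse it. The other genes had been picked on this same contrast. With the depth implied by SRPBM, all hosts had a median of -0.24 on the log2 scale, against -0.03 with TMM, and the change was 1.39 for Sec11a and 1.44 for Sumf1, which differ from the reported values by more than the replicate SD. So did Sumf1 without its most read circle, at 1.82. Leaving out 1 library at a time gave 1.65 to 2.82 for Dpy19l1 and 1.47 to 1.84 for Sec11a, and a lone library is there assumed to vary like the other group. The values without control 1, 2.82 for Dpy19l1 and 1.84 for Sec11a, also differed from the reported ones by more than the replicate SD. Atl2 has 1 circle, so no value remains without it. The replicate number, which the labels do not tie to a shared culture, was tried as a replicate block: it gave 61 circRNAs, 20 hosts and 1 ER list host (Sil1) past edgeR's test, against 3, 0 and 0 without it. A minimum of 10 reads gave 66 circRNAs and 6 hosts, 50 reads 0 circRNAs, and no filter 61 circRNAs, 12 hosts and 1 ER list host (Snd1). DESeq2 gave 101 circRNAs, 47 hosts and 4 ER list hosts. With junctions within 5 nt summed 0 circRNAs passed. With 1 library left out 0 to 4 circRNAs and 0 to 2 hosts passed. The cause of these differences in counts was not tested. Of the 29 circles 17 had under 20 reads, too few for differences between groups to be read at this depth.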
